A study of Saccharomyces cerevisiae with 27 samples.

Results

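A set of 36 genes for heat shock proteins and chaperones that work outside the endoplasmic reticulum (ER) was followed through 5 comparisons of messenger RNA levels in the budding yeast Saccharomyces cerevisiae. The genes were chosen by name, and each of the 36 was found among the 6709 genes of the authors' deposited table. They fall into the Hsp70 system (12 genes), the Hsp90 system (5), small heat shock proteins with the disaggregase and sorting factors (5), membrane and Hsp31-family proteins (6), mitochondrial chaperones (5) and transcription factors of the stress response (3).

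The study measured poly-A selected RNA in 27 libraries, 9 groups of 3 replicates, all of S288C background. In the strain carrying OLE1 behind the methionine-repressed MET3 promoter, the group labelled OLE1met250 (described as low in lipid unsaturation) was set against OLE1met0 (no methionine, unrepressed). OLE1 encodes the acyl-CoA desaturase, which makes unsaturated fatty acids. Cells carrying the plasmid pCM188-SPT23p90 or pCM188-MGA2p90, whose doxycycline-repressible promoter drives the processed fragment of SPT23 or MGA2 (activators of OLE1), were compared without doxycycline (spt23p90, mga2p90) and with it (spt23p90-dox, mga2p90-dox). Plain BY4742 cells gave the last 3 groups, namely aerobic cultures (BY), cultures kept for 90 min in argon (ArgonST), and growth in a microfermenter with long-term hypoxic conditions (ArgonLT). ArgonST and ArgonLT were both compared with BY, so these comparisons share their control samples. Both OLE1 groups carry the same promoter integration. By title and column header they differ in methionine, although a further label of OLE1met250 differs from these, as given below. An effect of methionine itself therefore cannot be told apart from one through OLE1. Likewise the fragment and the absence of doxycycline, and the microfermenter and low oxygen, change together and cannot be told apart.

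Every log2 fold change and q value below comes from the authors' deposited table, which has 1 value per gene and comparison. Positive values are higher in the first named group, and a gene rose or fell where the authors' q was under 0.05. No value per library was used here, so no SD stands beside a value and the depth is unknown. The labels were checked on their target genes: SPT23 rose by 2.55 on the log2 scale in spt23p90 and MGA2 by 3.73 in mga2p90. OLE1 had a log2 of -0.03 (q 0.925) in the group labelled OLE1met250, so the target does not check that label, and one of its labels reads 0 uM methionine although its title carries the number 250. MGA2 rose by 4.33 in the same group and by 2.23 in ArgonLT, and was at -1.46 in spt23p90, called lower. OLE1 rose by 1.11 in spt23p90, 2.18 in mga2p90, 0.72 in ArgonST and 3.20 in ArgonLT. No comparison had a value other than 0 for LEU2 or LYS2, which BY4742 lacks. URA3 and HIS3, also mutated in BY4742, did have values: URA3 was listed at 10 in ArgonLT with a q of 1 and at 0 in ArgonST, and HIS3 had 1.46 (q 0.154) and 0.17 (q 0.899). In the group labelled OLE1met250, URA3 was listed at -10 and not tested, and HIS3 had -1.93 (q 0.063). URA3 had -0.72 in spt23p90 (q 0.00453, called lower) and -0.52 in mga2p90 (q 0.0555). HIS3 had -0.26 (q 0.867) and 0.21 (q 0.886) in these.

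Chaperones bind unfolded or newly made proteins and use ATP cycles, guided by cochaperones, to fold, hold, move or disaggregate them. In yeast, heat and other stresses that unfold proteins act through Hsf1, which binds heat shock elements in the promoters of chaperone genes. A broader stress response runs through Msn2 and Msn4, which enter the nucleus when protein kinase A activity is low and bind stress response elements. Constitutive chaperone genes that serve translation, by contrast, are known to follow growth and ribosome production.

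The upstream sequences of the 36 genes were searched for the stress response element, AGGGG on either strand, and for a heat shock element. The latter was taken as 3 units of GAA, the middle one inverted, with 2 unspecified bases between neighbouring units, on either strand. Overlapping matches of the same motif were counted, and no match of one motif can hold the other within it. In the R64 RefSeq assembly the gene starts used here are start codons. In windows from 250 bases before to 50 bases after the start codon, 8 of the 36 genes (22.2%) held the heat shock element, against 47 of 6001 protein-coding genes (0.783%). The stress response element was found for 13 of the 36 (36.1%) and for 21.6% of all genes. In the 500 bases before the start codon, a window added after seeing the data, 13 of the 36 (36.1%) held the heat shock element, against 1.48% of all genes. Of the 36, 16 (44.4%) held the stress response element there, against 34.1%. HSP32, HSP33 and SNO4 add to the stress response element counts of both windows, although their coding sequences are 98.9% to 99.4% identical. In each of them the matches begin at -191 and -150, so these genes are not independent of each other. A match is a run of letters and no evidence of binding.

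Stretches upstream of 7 genes are shown because these genes moved in different directions. HSP26 and HSP12 held repeated stress response elements and no heat shock element of this form, and HSP60, HSP10, BTN2, SIS1 and SSA2 held the heat shock element alone, all in the 500 bases before the start codon. The matches of HSP26, BTN2 and SIS1 lie outside the shorter window. The stretches are printed on the strand of the gene with the matches in capitals. They lie at chrII:381536-381723 (plus strand), chrVI:106806-107085 (plus), chrXII:665185-665227 (minus), chrXV:370977-371019 (minus), chrVII:772095-772142 (plus), chrXIV:619872-619924 (minus) and chrXII:97691-97733 (minus) of R64, in the order below. Counted from the start codon, the matches begin at -479, -461 and -326 in HSP26 and at -435, -414, -377, -232 and -190 in HSP12. The HSP12 stretch overlaps the annotated gene YFL015C.
HSP26: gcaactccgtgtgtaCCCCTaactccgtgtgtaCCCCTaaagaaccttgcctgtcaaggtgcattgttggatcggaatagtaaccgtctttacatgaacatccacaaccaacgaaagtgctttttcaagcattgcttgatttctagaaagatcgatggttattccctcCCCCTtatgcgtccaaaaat
HSP12: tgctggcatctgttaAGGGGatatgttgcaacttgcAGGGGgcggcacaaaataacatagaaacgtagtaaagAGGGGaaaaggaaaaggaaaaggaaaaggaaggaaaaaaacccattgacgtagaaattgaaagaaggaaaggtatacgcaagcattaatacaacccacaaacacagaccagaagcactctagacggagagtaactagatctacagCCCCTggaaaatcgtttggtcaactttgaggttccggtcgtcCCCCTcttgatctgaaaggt
HSP60: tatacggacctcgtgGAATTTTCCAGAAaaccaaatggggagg
HSP10: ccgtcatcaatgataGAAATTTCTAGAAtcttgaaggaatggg
BTN2: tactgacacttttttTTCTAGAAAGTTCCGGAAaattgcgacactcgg
SIS1: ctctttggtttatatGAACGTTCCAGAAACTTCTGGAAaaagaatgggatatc
SSA2: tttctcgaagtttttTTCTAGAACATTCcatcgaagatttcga

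**Figure D1:**
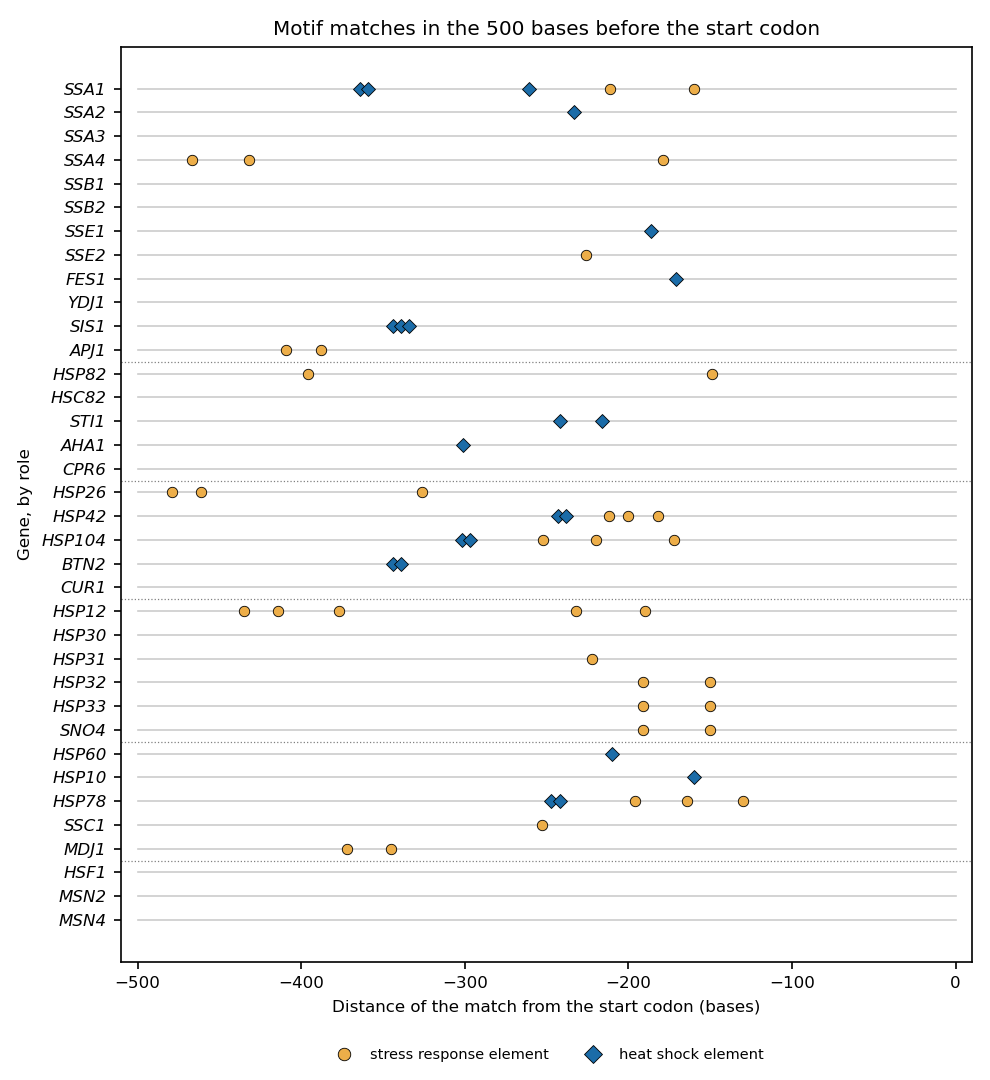
Positions of the motif matches (x axis, bases from the start codon, negative upstream) for each of the 36 genes (y axis, by role) in the 500 bases before the start codon. Circles are stress response elements, found for 16 genes, and diamonds heat shock elements of 3 units, found for 13; 11 genes hold neither.

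Of the 36 genes, 25 passed the threshold in at least 1 comparison of the authors' deposited table and none did in all 5. All 25 were among the 33 tested in all 5 comparisons (75.8%), and of the 5276 genes of the whole table tested in all 5, 66.8% passed in at least 1. Of the 25, 12 were called higher and never lower, 8 lower and never higher, and 5 (HSP12, HSP30, HSP31, BTN2 and MSN4) went in both directions. This split was not made over the whole table, so it is not known to be particular to these genes. HSP26, SSA4, HSP12, HSP30 and HSP31 were each called in 4 comparisons. The 11 genes never called were SSE1, APJ1, HSP82, CPR6, HSP42, CUR1, MDJ1, MSN2 and the 3 near-identical genes HSP32, HSP33 and SNO4.

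In the group labelled OLE1met250, 10 of the 34 tested chaperone genes rose (29.4%, where 16.7% of all tested genes were called higher) and 2 fell (5.88%, where 14.5% of all were called lower). The 10 were SSA3, HSP26, HSP30, HSP12, HSP60, SSA4, SSC1, BTN2, HSP10 and SSE2, and the 2 were HSP31 and MSN4. Their median log2 fold change was 0.45 beside -0.01 for all tested genes, and 29 of the 34 values were above 0. Without the 12 genes of the Ssa, Ssb, Hsp90 and Hsp31 families, which have close paralogues, the median was 0.56.

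In spt23p90, 3 of 33 tested genes rose (9.09%, with 6.86% of all tested genes called higher) and 4 fell (12.1%, with 5.49% called lower). HSP26, HSP12 and HSP31 rose, and SSA2, BTN2, HSP30 and STI1 fell. With a minimum change of 2-fold the falls were 2 and the rises 3, so that rises outnumbered falls. The median was -0.09, beside -0.04 for all genes in the authors' deposited table. In mga2p90, 7 of 33 rose (21.2%, with 12.2% of all called higher) and 1 fell (3.03%, with 8.58% called lower). HSP26, MSN4, SSA4, HSP31, SSE2, SSA1 and HSP104 rose and SSA2 fell. The median there was 0.02, beside -0.02 for all genes. With a minimum change of 2-fold, the rises in mga2p90 were 2 in place of 7.

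ArgonST had few calls: 1 of 33 tested genes rose (3.03%, with 4.86% of all tested genes called higher) and 2 fell (6.06%, with 2.41% called lower). SSA4 rose and HSP12 and HSP30 fell, and the rise of SSA4 did not pass a q under 0.01. In ArgonLT, 9 of 33 rose (27.3%, with 24.1% of all called higher) and 10 fell (30.3%, with 18.4% called lower). The share of rises was therefore near that of all genes. With a minimum change of 2-fold there were 5 rises and 6 falls, and the same numbers without the genes of the Ssa, Ssb, Hsp90 and Hsp31 families. HSP26, HSP31, MSN4, HSF1, SSA4, HSP78, SSA3, SSA1 and AHA1 rose. SSB1, SSB2, SSA2, BTN2, HSC82, HSP30, YDJ1, SIS1, HSP12 and FES1 fell. The medians in the authors' deposited table were 0.07 in ArgonST and -0.19 in ArgonLT, beside 0.05 and 0.09 for all genes.

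**Figure D2:**
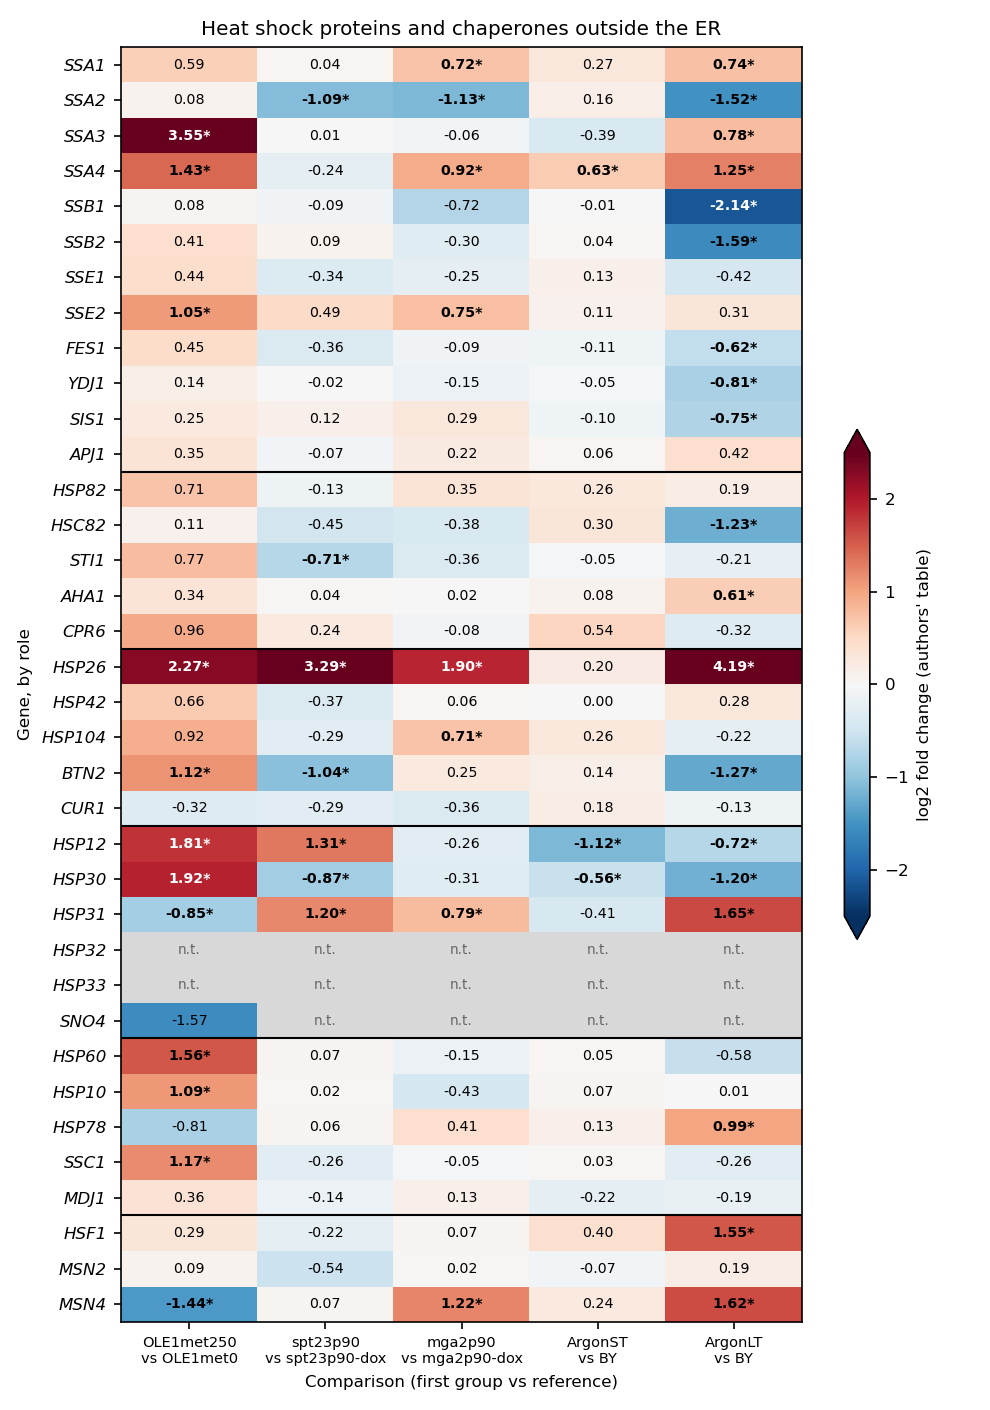
Log2 fold change of each of the 36 genes (rows, by role, separated by lines) in the 5 comparisons (columns), with the value in each cell; red is higher and blue lower in the first named group, and the colour scale ends at 2.5 in either direction. Bold values with an asterisk had an authors' q under 0.05, and grey cells marked n.t. were not tested. HSP26 is deep red in 4 columns, and the ArgonLT column holds both the highest value, 4.19 for HSP26, and the lowest, -2.14 for SSB1.

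Cytosolic Hsp70s of the Ssa family take up unfolded proteins after translation. SSA1 and SSA2 are the main forms in growing cells, and SSA3 and SSA4 are induced by stress. SSA2 (YLL024C, chromosome XII, 95566 to 97485, minus strand, 1 exon) was at 0.08 in the group labelled OLE1met250 (q 0.854) and at 0.16 in ArgonST (q 0.698). It fell in the 3 others of the authors' deposited table, with -1.09 in spt23p90 (q 0.00299), -1.13 in mga2p90 (q 0.0013) and -1.52 in ArgonLT (q 0.000304, the lowest q in the table). The last is a 2.86-fold decrease. SSA1 (YAL005C, chromosome I, 139503 to 141431, minus strand, 1 exon) rose by 0.72 in mga2p90 (q 0.049) and by 0.74 in ArgonLT (q 0.0394). Its other values were 0.59, 0.04 and 0.27 in OLE1met250, spt23p90 and ArgonST. SSA1 was thus called higher in the same comparisons, mga2p90 and ArgonLT, in which SSA2 was called lower.

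The coding sequences of SSA1 and SSA2 are 96.4% identical in R64 and share a stretch of 383 identical bases. Reads from it cannot be assigned to 1 of the genes, so their separate values are uncertain. The log2 value of SSA1 exceeded that of SSA2 by 1.13 in spt23p90 and by 2.26 in ArgonLT, differences that were not tested. SSA1 also shares its locus with the row YAL004W on the opposite strand, which was not called in any of the 5 comparisons.

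SSA4 (YER103W, chromosome V, 364589 to 366517, plus strand, 1 exon) was one of the most often called genes of the set. In the authors' deposited table it rose by 1.43 in the group labelled OLE1met250 (q 0.000304), by 0.92 in mga2p90 (q 0.000574), by 0.63 in ArgonST (q 0.0336) and by 1.25 in ArgonLT (q 0.000304). In spt23p90 it was at -0.24 (q 0.42). SSA4 was the single member of the Hsp70 system called in ArgonST.

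SSA3 (YBL075C, chromosome II, 84499 to 86448, minus strand, 1 exon) had the highest value of the tested chaperone genes in the group labelled OLE1met250. The increase there was 11.7-fold (log2 3.55, q 0.000304), the 24th highest of 6062 tested genes with finite values. In ArgonLT it rose by 0.78 (q 0.0202). The values in spt23p90, mga2p90 and ArgonST were 0.01, -0.06 and -0.39, with q values between 0.339 and 0.986 in the authors' deposited table. SSA3 and SSA4 are 76.6% identical, and their longest shared stretch is 17 bases.

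SSB1 and SSB2 encode the Hsp70s that sit on translating ribosomes. SSB1 (YDL229W, chromosome IV, 44065 to 45906, plus strand, 1 exon) had the lowest value of the set, a 4.41-fold decrease in ArgonLT (log2 -2.14, q 0.000304). SSB2 fell 3.01-fold there (log2 -1.59, q 0.000304). In the 4 other comparisons of the authors' deposited table, values lay between -0.72 and 0.08 for SSB1 and between -0.30 and 0.41 for SSB2, and no call was made. The SSB genes are 97.4% identical, so their values are not independent. The antisense row YDL228C at the SSB1 locus fell along with SSB1 in ArgonLT, at -2.02, and, with the use of strand not stated, they cannot be told apart.

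Nucleotide exchange factors and J proteins set the pace of the Hsp70 cycle. SSE2, the stress-inducible Hsp110, rose by 1.05 in the group labelled OLE1met250 (q 0.00686) and by 0.75 in mga2p90 (q 0.00472), and had 0.49 in spt23p90 (q 0.073). Its paralogue SSE1 was never called, with values from -0.42 to 0.44 in the authors' deposited table. The exchange factor FES1 fell by 0.62 in ArgonLT (q 0.0179). Of the J proteins, YDJ1 fell by 0.81 and SIS1 by 0.75 there, both with a q of 0.00319. APJ1, a J protein linked to disaggregation, stayed between -0.07 and 0.42 without a call. Over the Hsp70 system in ArgonLT, 6 of 12 genes fell (50%, with 18.4% of all tested genes called lower). The 3 rises (25%) were near the 24.1% of all tested genes called higher. The 6 were SSB1, SSB2, SSA2, YDJ1, SIS1 and FES1, and the 3 were SSA4, SSA3 and SSA1.

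Hsp90 matures kinases, receptors and other clients, and yeast makes it from HSC82, the constitutive gene, and HSP82, the inducible one. HSC82 (YMR186W, chromosome XIII, 632355 to 634472, plus strand, 1 exon) fell 2.34-fold in ArgonLT (log2 -1.23, q 0.000304). HSP82 was at 0.19 there (q 0.565) and was not called in any comparison, its highest value being 0.71 in the group labelled OLE1met250 (q 0.202). The coding sequences of the genes are 91.7% identical, and the difference between them in ArgonLT, 1.42 on the log2 scale, was not tested.

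Among the Hsp90 cochaperones, STI1, which bridges Hsp70 and Hsp90, fell by 0.71 in spt23p90 (q 0.00581) and had 0.77 in the group labelled OLE1met250 (q 0.0862). AHA1, which stimulates the Hsp90 ATPase, rose by 0.61 in ArgonLT (q 0.021). The cyclophilin CPR6 had 0.96 in OLE1met250 (q 0.071) and 0.54 in ArgonST (q 0.0706), short of the threshold in the authors' deposited table. None of the 5 Hsp90-system genes was called in OLE1met250, mga2p90 or ArgonST, although all 5 values in OLE1met250 were above 0, from 0.11 to 0.96. The shares of all tested genes called higher and lower were 16.7% and 14.5% in OLE1met250, 12.2% and 8.58% in mga2p90, and 4.86% and 2.41% in ArgonST. With 5 genes this absence cannot be read as a trait of the Hsp90 system.

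**Figure D3:**
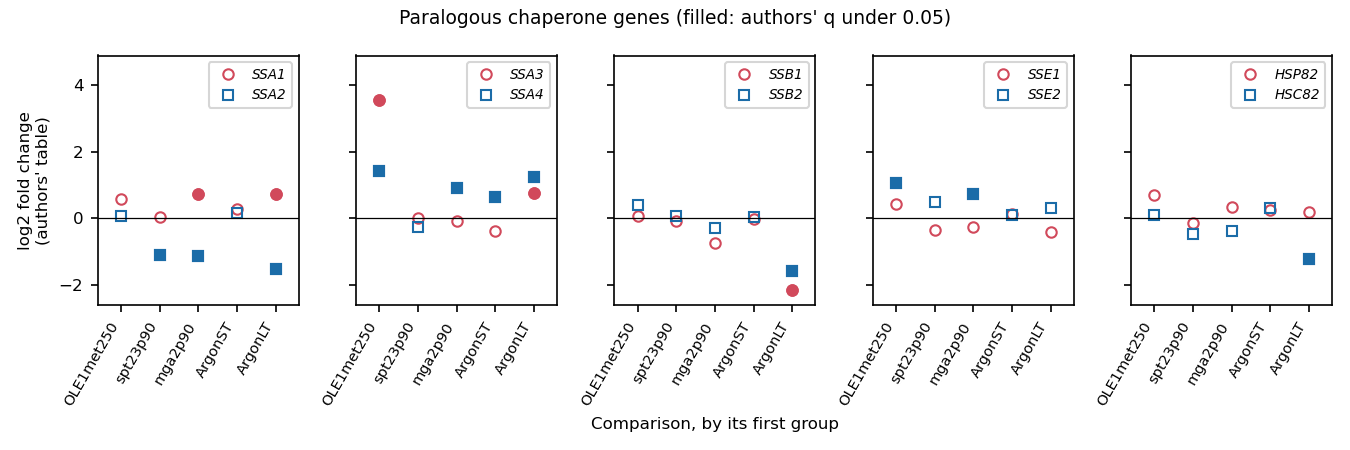
Log2 fold change (y axis) of 5 pairs of paralogous chaperone genes in the 5 comparisons (x axis, named by the first group). Filled symbols had an authors' q under 0.05. In ArgonLT, SSA2, SSB1, SSB2 and HSC82 lie between -2.14 and -1.23, while SSA1, SSA3 and SSA4 lie between 0.74 and 1.25.

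HSP26 (YBR072W, chromosome II, 382030 to 382674, plus strand, 1 exon) encodes a small heat shock protein that co-aggregates with unfolded proteins and eases their later recovery. It had the highest value of the tested chaperone genes in spt23p90, mga2p90 and ArgonLT. In the authors' deposited table its increase was 4.83-fold in OLE1met250 (log2 2.27), 9.78-fold in spt23p90 (log2 3.29), 3.73-fold in mga2p90 (log2 1.90) and 18.3-fold in ArgonLT (log2 4.19), each with a q of 0.000304. In ArgonST it was at 0.20 (q 0.664). Its rank from the highest among tested genes with finite values was 9 of 5592 in spt23p90, 39 of 5641 in ArgonLT, 92 of 5559 in mga2p90 and 96 of 6062 in OLE1met250. Its upstream stretch, printed above, holds 3 stress response elements.

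HSP42, the other cytosolic small heat shock protein, which is also made in unstressed cells, did not share these calls. Its values were 0.66, -0.37, 0.06, 0.00 and 0.28 in the order of the comparisons, with q values from 0.169 to 0.992. HSP104, the hexameric disaggregase that pulls polypeptides out of aggregates, rose by 0.71 in mga2p90 (q 0.0224) and had 0.92 in the group labelled OLE1met250 (q 0.0708). Its other values in the authors' deposited table ranged from -0.29 to 0.26.

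BTN2 encodes a factor that sorts misfolded proteins to deposition sites. BTN2 (YGR142W, chromosome VII, 772454 to 773686, plus strand, 1 exon) rose by 1.12 in the group labelled OLE1met250 (q 0.00319), and fell by 1.04 in spt23p90 and by 1.27 in ArgonLT, both with a q of 0.000304. Its values in mga2p90 and ArgonST were 0.25 and 0.14. Its paralogue CUR1 was never called, with values from -0.36 to 0.18 in the authors' deposited table. HSP26 and BTN2 were called in opposite directions in spt23p90 and in ArgonLT, and in the same direction in OLE1met250.

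HSP12 encodes a small membrane-associated protein that stabilizes the plasma membrane under stress, and HSP30 a plasma membrane protein that restrains the proton pump Pma1. HSP12 (YFL014W, chromosome VI, 107256 to 107585, plus strand, 1 exon) rose by 1.81 in the group labelled OLE1met250 and by 1.31 in spt23p90, both with a q of 0.000304. It fell by 1.12 in ArgonST (q 0.00153), a 2.17-fold decrease, and by 0.72 in ArgonLT (q 0.0317). In mga2p90 it was at -0.26 (q 0.371). The value in ArgonST was the 77th lowest of 5436 tested genes with finite values and the lowest of the chaperone set.

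HSP30 (YCR021C, chromosome III, 156109 to 157107, minus strand, 1 exon) rose by 1.92 in the group labelled OLE1met250 (q 0.000304). It fell in spt23p90 by 0.87 (q 0.00107), in ArgonST by 0.56 (q 0.0315) and in ArgonLT by 1.20 (q 0.000304), and had -0.31 in mga2p90 (q 0.29). HSP12 and HSP30 thus had the same direction in OLE1met250, ArgonST and ArgonLT and opposite directions in spt23p90 in the authors' deposited table. ArgonST and ArgonLT share the BY libraries, so their falls are not independent of each other.

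HSP31, of the DJ-1 family of glyoxalases and stress chaperones, showed another pattern. HSP31 (YDR533C, chromosome IV, 1501447 to 1502160, minus strand, 1 exon) fell by 0.85 in the group labelled OLE1met250 (q 0.0175), and rose by 1.20 in spt23p90 (q 0.000304), 0.79 in mga2p90 (q 0.00472) and 1.65 in ArgonLT (q 0.000304). In ArgonST it was at -0.41 (q 0.211).

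The subtelomeric copies HSP32, HSP33 and SNO4 are 98.9% to 99.4% identical to each other and could hardly be measured. Of their 15 values in the authors' deposited table, 14 had a q of 1 and were not tested, and SNO4 had -1.57 in OLE1met250 (q 0.179). In ArgonLT all 3 were listed at 10, taken here as a ratio with the reference at 0.

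Mitochondrial matrix chaperones fold imported proteins. HSP60 and HSP10 form the chaperonin and its lid, SSC1 is the Hsp70 of the import motor, MDJ1 is its J partner and HSP78 is the matrix disaggregase. In the group labelled OLE1met250, HSP60 (YLR259C, chromosome XII, 663284 to 665002, minus strand, 1 exon) rose 2.95-fold (log2 1.56, q 0.000304). SSC1 rose by 1.17 (q 0.000826) and HSP10 by 1.09 (q 0.00259), while MDJ1 had 0.36 (q 0.277) and HSP78 -0.81 (q 0.083). The 3 rises were 60% of the 5, with 16.7% of all tested genes called higher in OLE1met250. None of the 5 was called in spt23p90, mga2p90 or ArgonST, where their values ranged from -0.43 to 0.41. At most 12.2% of all tested genes were called higher and 8.58% lower in these comparisons. With 5 genes this absence cannot be read as a trait of them. In ArgonLT HSP78 rose by 0.99 (q 0.000304), and HSP60 stood at -0.58 (q 0.0559) in the authors' deposited table. HSP60, HSP10 and SSC1 were each called in 1 comparison, OLE1met250.

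Transcripts of the regulators were measured as well, although Hsf1, Msn2 and Msn4 are mainly controlled as proteins. MSN4 (YKL062W, chromosome XI, 323228 to 325120, plus strand, 1 exon) fell by 1.44 in the group labelled OLE1met250, and rose by 1.22 in mga2p90 and by 1.62 in ArgonLT, each with a q of 0.000304. It had 0.07 in spt23p90 and 0.24 in ArgonST. Its partner MSN2 was not called, with values from -0.54 to 0.19. HSF1 (YGL073W, chromosome VII, 368753 to 371254, plus strand, 1 exon) rose 2.93-fold in ArgonLT (log2 1.55, q 0.000304) and lay between -0.22 and 0.40 elsewhere in the authors' deposited table. The HSF1 locus overlaps the rows YGL072C and YGL074C, neither of which was called. In OLE1met250 MSN4 and HSP31 fell while HSP26 and HSP12 rose.

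**Figure D4:**
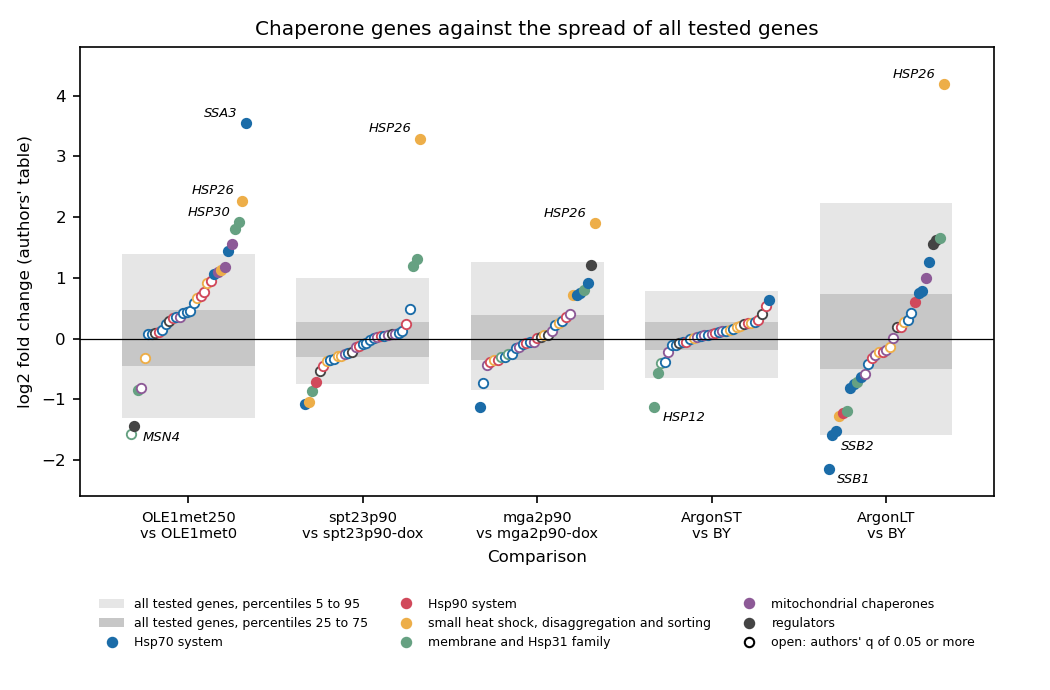
Log2 fold change (y axis) of the tested chaperone genes in each comparison (x axis), ordered by value within it and coloured by role, over grey bands for all tested genes (darker, the interquartile range; lighter, the range without the lowest and highest 5%). Filled points had an authors' q under 0.05. In ArgonST most points lie inside the narrow band and HSP12 lies below it at -1.12, while HSP26 lies above the wide band in the 4 other comparisons.

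Grouped by the motifs in the window from 250 bases before to 50 after the start codon, 5 genes held the heat shock element alone (SSA2, SSE1, STI1, HSP60 and HSP10). Of these, 2 rose in the group labelled OLE1met250, 2 fell in spt23p90, 1 fell in mga2p90 and 1 fell in ArgonLT in the authors' deposited table, with no other call. Of the 10 genes with the stress response element alone, 8 were tested in OLE1met250, where 3 rose and 1 fell, and 7 in each other comparison. There 2 rose in spt23p90, 5 rose in mga2p90, 1 rose and 1 fell in ArgonST, and 3 rose and 1 fell in ArgonLT. The 3 genes with both motifs (FES1, HSP42 and HSP78) had 1 rise and 1 fall, both in ArgonLT. The stress response element of FES1 does not lie wholly before the start codon. The 18 genes with neither had 5 rises and 1 fall in OLE1met250, 1 and 2 in spt23p90, 2 and 0 in mga2p90, 0 and 1 in ArgonST, and 5 and 7 in ArgonLT. HSP26, BTN2, SIS1 and AHA1 are among the 18. Of all tested genes, 16.7% were called higher and 14.5% lower in OLE1met250, 6.86% and 5.49% in spt23p90, and 12.2% and 8.58% in mga2p90. In ArgonST these shares were 4.86% and 2.41%, and in ArgonLT 24.1% and 18.4%. Several of the class counts lie near these shares. Examples are the 1 fall among 5 and the 5 rises among 18 in ArgonLT, and the 2 rises among 18 in mga2p90. The classes are small, and none of the counts was tested against these shares.

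The classes depend on the window. In the 500 bases before the start codon, a window chosen after seeing the data, 9 genes held the heat shock element alone. Of these, 4 fell (SSA2, FES1, SIS1 and BTN2) and 1 rose (AHA1) in ArgonLT, where 18.4% of all tested genes were called lower and 24.1% higher. Of the 9 tested there with the stress response element alone, 3 rose and 1 fell, of the 4 with both motifs 2 rose, and of the 11 with neither 3 rose and 5 fell. These counts describe the genes and were not tested.

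Other genes of the same pathways were set beside the chaperone set in each comparison. Of 22 general stress genes controlled by Msn2 and Msn4, 17 rose in ArgonLT (77.3%, with 24.1% of all tested genes called higher). There 1 fell (4.55%, with 18.4% of all called lower), and the median log2 was 1.32. The rises were led by the hexokinase HXK1 at 3.78 and the glycogen phosphorylase GPH1 at 3.60, both with a q of 0.000304. DDR2 followed at 3.52 in the authors' deposited table, with a q of 0.0448, close to the threshold. In ArgonST 7 rose (31.8%, with 4.86% of all called higher), led by phosphoglucomutase PGM2 at 1.89, and 1 fell (4.55%, with 2.41% called lower). In the group labelled OLE1met250 7 rose (31.8%, with 16.7% of all called higher), led by GAC1 at 1.83 and XBP1 at 1.55. In mga2p90 8 rose (36.4%, with 12.2% of all), led by HXK1 at 2.56 and the catalase CTT1 at 2.55. Neither comparison had a fall. In spt23p90 4 rose (18.2%, with 6.86% of all) and 1 fell (4.55%, with 5.49%), with HXK1 at 1.74. HSP12 fell in ArgonST and ArgonLT, in which more of these genes rose than fell.

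Among other chaperone lists in ArgonLT, the CCT chaperonin had the largest share of falls, where 18.4% of all tested genes fell and 24.1% rose. Of the 8 subunits of the complex, which folds actin and tubulin, 7 fell and none rose, led by TCP1 at -1.20 and CCT3 at -1.18. SSZ1 and ZUO1, which anchor and activate Ssb on the ribosome, were at -1.63 and -1.53, both called lower, and the list of other J proteins and ribosome-bound partners had 4 falls and 2 rises among 10 in the authors' deposited table. Prefoldin, which hands actin and tubulin to CCT, had 2 falls among 6, GIM5 at -1.07 and GIM3 at -1.05. The other Hsp90 cochaperones had 4 falls, led by PPT1 at -1.17, and 1 rise, TAH1 at 0.91, among 9. The other mitochondrial chaperones and proteases had 3 falls and no rise among 11, led by MGE1, the exchange factor of Ssc1, at -1.35, and a median log2 of 0.31.

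Elsewhere these lists had few calls. In the group labelled OLE1met250 CCT had 1 rise (TCP1, 0.60), prefoldin 2 falls (PAC10, -1.18, and GIM3, -1.04), and the other Hsp90 cochaperones 1 rise and 2 falls, with CNS1 at -0.73. The J protein list had 2 rises and 2 falls there, with SNL1 at -1.09 and SWA2 at 1.03, and the mitochondrial list 1 fall, MCX1 at -0.85. In the authors' deposited table spt23p90 had 1 fall in CCT (CCT7, -0.53), 1 among the J proteins (XDJ1, -0.98) and 2 in the mitochondrial list (PAM16, -0.91, and PIM1, -0.58). In mga2p90 GIM3 fell by 1.33, CNS1 by 0.77, and PIH1, XDJ1 and TIM44 rose by 0.80, 0.71 and 0.81. In ArgonST the single call in these lists was SSQ1, an Hsp70 for iron-sulfur clusters, at -0.80. In spt23p90, mga2p90 and ArgonST the lists had as many tested genes, except for 11 in the mitochondrial list. All tested genes were called higher and lower at 6.86% and 5.49% in spt23p90, 12.2% and 8.58% in mga2p90, and 4.86% and 2.41% in ArgonST.

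ER chaperones, the nearest comparable group, had 9 rises and no fall among 17 genes in the group labelled OLE1met250. The rises were 52.9%, with 16.7% of all tested genes called higher, and included PDI1 at 1.73 and KAR2 at 1.66. The median was 0.75 beside the 0.45 of the chaperones outside the ER. In mga2p90 the ER chaperones had 7 rises (41.2%, with 12.2% of all) and no fall, led by KAR2 at 1.11. The median was 0.37 beside 0.02. In the authors' deposited table spt23p90 had 1 fall (5.88%, with 5.49% of all called lower), SEC63 at -0.55. ArgonST had 2 rises (11.8%, with 4.86% of all called higher), EUG1 at 0.95 and ROT1 at 0.54. In ArgonLT there were 2 rises (11.8%, with 24.1% of all), led by EUG1 at 0.81, and 1 fall (5.88%, with 18.4%), SEC63 at -0.91. The median there was -0.16 beside -0.19. These differences between the groups of genes were not tested.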

How the data were processed

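RNA of 27 libraries in 9 groups of 3, grouped by sample title, was sequenced by the authors. Per the submitters' processing notes they used Trimmomatic 0.33, TopHat2 2.0.14, Cuffdiff 2.2.1 and the R64 build. No source used here gives the settings, the annotation or whether counting used strand. Per the file headers, the deposited values are log2 differential expression and q values (p-values adjusted for false discovery), 1 of each per gene and comparison. From the values, exactly 10 or -10 was read as a ratio with no finite log2, and a q below 1 marks a gene as tested. No test was run here, so the rule for calls is the authors' q under 0.05.

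The 36 genes and the other gene lists were chosen with earlier results of these data known. All 36 are named, and of each other list up to 3 called genes with the largest absolute change. A further list of genes is not reported here. The 4 emptied lines were left out, and the table has no column of a single sample. Positions are RefSeq R64, equal to the deposited ones for 33 of the 36 genes after adding 1 to the start. Motif windows and coding sequences were read from that genome, and paralogues aligned globally with Biopython 1.88. Counting, medians and motif search were tested on simulated data.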

Additional observations from a re-analysis of the deposited data

How the results depend on the processing

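Counts are given as rises and falls of the chaperone genes against the main count. At a q under 0.01, falls in the group labelled OLE1met250 were 1 in place of 2, and ArgonST had 0 rises in place of 1 and 1 fall in place of 2. With a minimum change of 2-fold, whether or not the median of all tested genes was first subtracted, falls in OLE1met250 were 1 and in spt23p90 2 in place of 4, rises in mga2p90 2 in place of 7, ArgonST had 0 rises and 1 fall, and ArgonLT had 5 rises in place of 9 and 6 falls in place of 10. Without the 12 genes of the Ssa, Ssb, Hsp90 and Hsp31 families, which have close paralogues, falls in OLE1met250 were 1 and the median there 0.56 in place of 0.45, mga2p90 had 4 rises and 0 falls in place of 7 and 1, ArgonST 0 rises, and ArgonLT 5 rises and 6 falls. By construction these settings count fewer genes. Leaving out the 4 genes whose locus overlaps another row, chosen after seeing the data, kept every count within 1.5 times. No median changed sign under the alternatives run, but in spt23p90 rises (3) outnumbered falls (2) at a minimum of 2-fold, where falls had outnumbered rises (4 against 3). The longer promoter window, also chosen after seeing the data, gave 13 in place of 8 genes with the heat shock element. Leaving out replicates needs values per library and was not run. No paired analysis was possible because the deposited columns carry comparisons and no replicate numbers. Depth is unknown, so weakly expressed genes cannot be set apart.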
